A study of Mus musculus with 8 samples.

Results

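The 33 genes described here encode enzymes and signalling proteins of DNA repair. They were found by gene symbol from a list of the pathways' known enzymes, with no threshold on a measured value, and all 33 were present among the 53465 genes of the count table. Of these, 20 act in base excision and single-strand break repair and 13 in the sensing, signalling and rejoining of double-strand breaks. RNA was sequenced from mesenchymal stromal cells (MSCs) of mice aged 3 to 5 months, named bone-marrow MSCs in the labels and described in the study's methods as isolated from bone tissue, and cultured in 5% CO2 at either 2% O2 (hypoxia, 4 samples) or 21% O2 (normoxia, 4 samples). Every sample was purified by flow cytometry as CD45-/Ter-119-/Sca-1+/CD140a+ cells, and per the study's methods all cells had first been expanded at 2% O2, so that the comparison is between cells kept at 2% O2 and cells moved to 21% O2 for a week. The sorted cells were divided between both oxygen levels, and samples with the same number are treated below as a pair.

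Base excision repair removes single damaged bases, such as those oxidised by reactive oxygen species. A DNA glycosylase cuts out the base, the AP endonuclease Apex1 opens the strand at the empty site, and a polymerase and a ligase close the gap, with Parp1 and Xrcc1 gathering the repair enzymes at the nick. A break through both strands is instead held and trimmed by the Mre11a-Rad50-Nbn complex, announced by the kinases Atm and Atr, and either copied from the sister chromatid by homologous recombination or sealed directly by the Ku proteins, Prkdc and Lig4 in end joining.

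Total counts ranged from 12898291 to 25132141 per sample, with hypoxia sample 1 alone above 13433824. At these depths 3 counts correspond to 0.119 to 0.233 CPM, the usual unit of read counts relative to the library total. All 10 genes of an MSC marker list passed the filter on low counts, with a summed level of 4018 to 4848 CPM in hypoxia and 4326 to 4688 CPM in normoxia, and 4 of them passed the test described below, 3 higher (Nt5e, Cd44 and Itgb1) and Eng lower. With the pairs of samples in the fit all 10 passed, 5 higher and 5 lower. Over all genes tested 34.6% passed without the pairs in the fit and 46.0% with them. Of 12 blood cell markers 9 passed the filter, with a sum of 499 to 988 CPM in hypoxia and 606 to 1137 CPM in normoxia, while Cd3e and Ly6g were at 0 in every sample. The pan-leukocyte gene Ptprc, which encodes the CD45 protein used to discard blood cells, stood at 13.01 CPM in hypoxia and 13.8 CPM in normoxia (adjusted p = 0.814), and Lyz2, a myeloid gene named after its value was seen, was the 1 blood marker that passed (log2 change 0.56, adjusted p = 0.022). Of the 9 blood markers 7 lay below zero, with a median log2 change of -0.26, and with the pairs in the fit 5 passed, Lyz2 higher and Csf1r, Itgam, Tyrobp and Cd68 lower (these and the MSC markers above were named after their values were seen). Endothelial markers summed to 1.28 to 2.65 CPM, and the haemoglobin genes Hba-a1 and Hbb-bs of red blood cells were at 0 in every sample. The part of these cells in the values below was not tested.

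All 33 repair genes passed the filter and were tested. The Ensembl identifier and GRCm38 position of each gene that passed are given where it is described. Levels are given in CPM scaled by TMM (trimmed mean of M-values) factors, as the mean with the SD over 4 samples. Changes are normoxia minus hypoxia on a log2 scale, so a positive value means a higher transcript level at 21% O2, with p-values from limma-trend adjusted by the Benjamini-Hochberg method over 14369 genes. In bulk RNA a lower share of cells that express a gene and less RNA per cell cannot be told apart. The study describes the 4 samples of a group as biologically independent, and the p-values measure the spread between them. The fit reported has no term for the pairs, so what the samples of a pair share stays in that spread. Values with the pairs in the fit are named as such.

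Of the 33 genes, 10 passed an adjusted p of 0.05, 8 of them higher and 2 lower in normoxia. That is 30.3% of them, against 34.6% of all genes tested, of which 18.0% were higher and 16.5% lower. With library size as the only scaling, the calls over all genes were 3611 higher and 1575 lower in place of 2592 and 2378. The 8 that rose were the ligase genes Lig4 and Lig3, the glycosylase gene Tdg, the end-cleaning gene Aptx, the sensor genes Nbn, Rad50 and Parp1, and the kinase gene Atr. The 2 that fell were the glycosylase gene Neil1 and the scaffold gene Xrcc1. The widest of the 10 changes was that of Lig4, 51.2% higher in normoxia, and the smallest that of Parp1, 15.2% higher. The groups did not overlap for 8 of the 33 genes, against 32.6% of all genes tested.

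**Figure D1:**
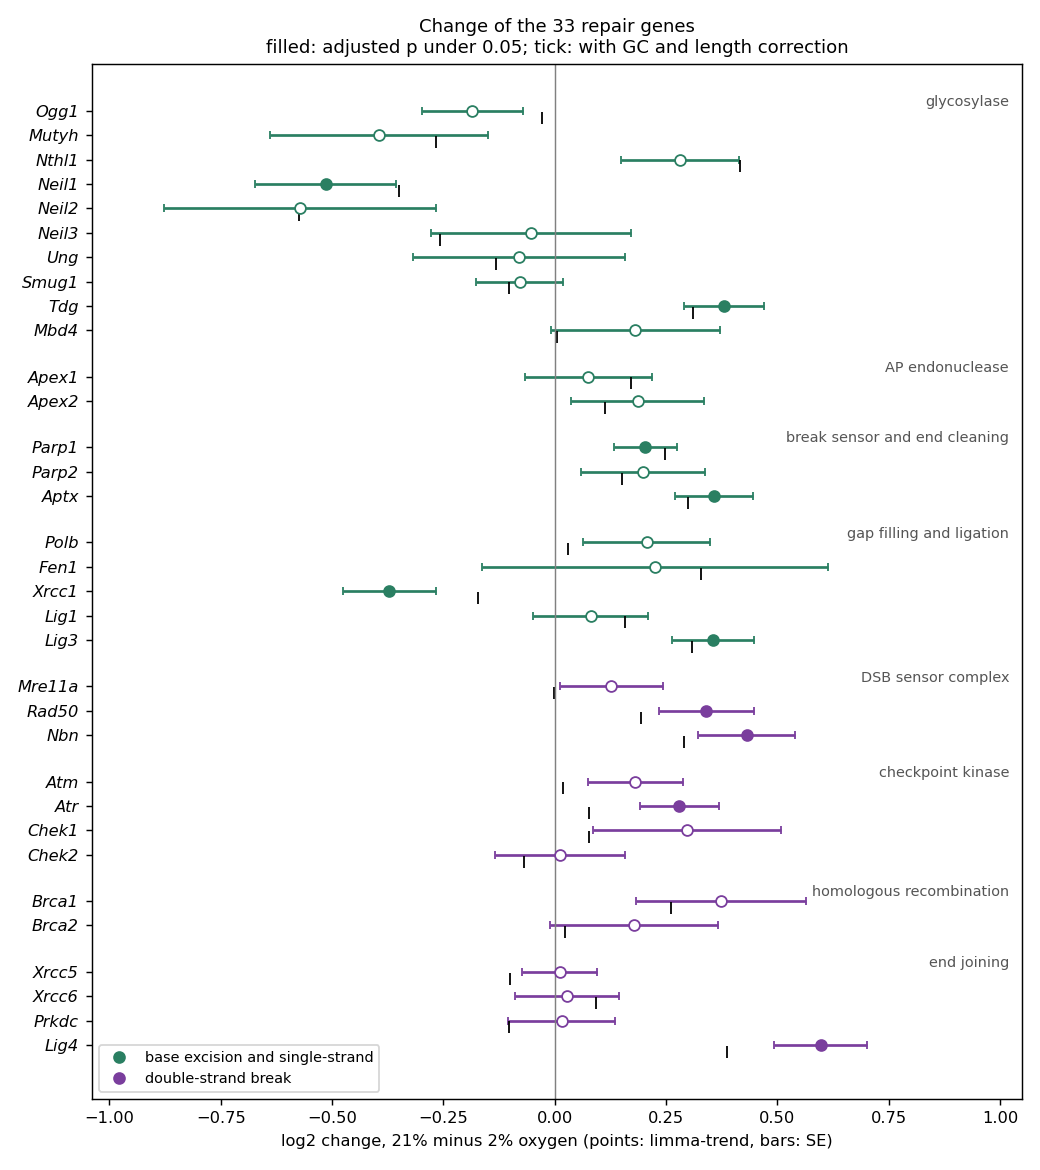
Log2 change (normoxia minus hypoxia) of each of the 33 repair genes, ordered by role, as a point with a bar for its standard error from the limma-trend fit and a black tick for the change after the GC and length correction. Filled points mark the 10 genes with an adjusted p under 0.05, of which 8 lie above zero and Neil1 and Xrcc1 lie below it.

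Levels were compared between genes per length of exon. The Ku subunit gene Xrcc5 was the highest, with 10.1 CPM per kilobase of exon in normoxia, followed by Parp1 with 8.11 in hypoxia and 9.34 in normoxia. In hypoxia Lig1 came next with 6.05 CPM per kilobase, and in normoxia Rad50 and Lig1 stood side by side with 6.50 and 6.40. Prkdc, which encodes the catalytic subunit of the DNA-dependent protein kinase that Ku recruits, stood at 1.30 CPM per kilobase in hypoxia and 1.323 in normoxia. The lowest levels were those of the flap endonuclease gene Fen1, with 0.123 and 0.174 CPM per kilobase, and the glycosylase gene Neil2, with 0.151 and 0.0949. Fen1 was read by 1 to 10 counts per sample and Neil2 by 3 to 16, so that their levels rest on few reads. Fen1 also shares 78.8% of its exon bases with Gm10143 on the opposite strand. How reads in shared bases were counted is not given, so the place of Fen1 in this order is uncertain.

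**Figure D2:**
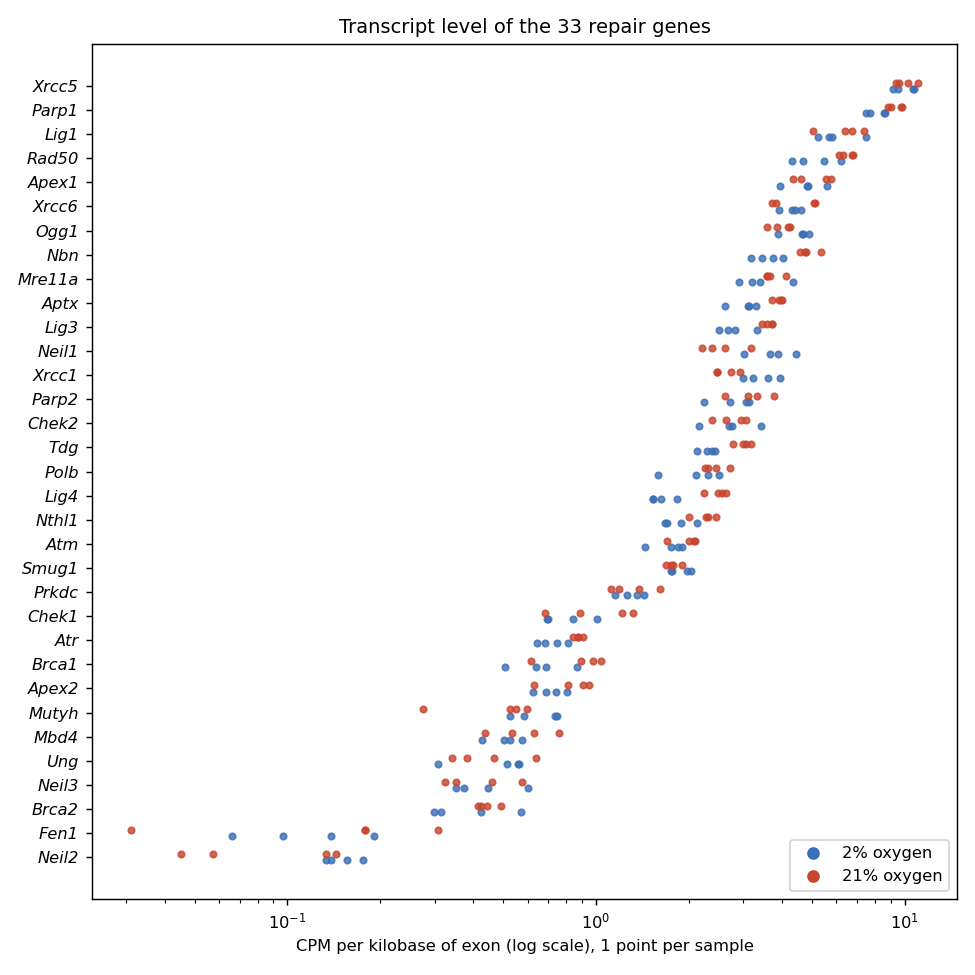
Level of each of the 33 repair genes in CPM per kilobase of exon on a log axis, with 1 point for each of the 4 hypoxia and 4 normoxia samples. Xrcc5 and Parp1 are at the top, and Fen1 and Neil2 at the bottom, below 0.2 CPM per kilobase in both group means. The place of Fen1 is uncertain because most of its exon bases are shared with a gene on the opposite strand.

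Of 10 glycosylase genes 1 rose and 1 fell, and their median change was -0.08 on the log2 scale against 0.0049 over all genes tested. Tdg (ENSMUSG00000034674, chr10:82629828-82650799), which encodes thymine DNA glycosylase, an enzyme that removes thymine and uracil from mismatches with guanine and also takes part in active DNA demethylation, had 13.04, 11.4, 12.7 and 12.3 CPM in hypoxia samples 1 to 4 and 16.5, 14.9, 16.1 and 17.0 CPM in normoxia. Every normoxia sample was above every hypoxia sample. The means were 12.4 ± 0.718 and 16.1 ± 0.9 CPM (SD, n = 4), a change of 0.38 (SE 0.0895, limma-trend adjusted p = 0.00635). A pseudogene of it, Tdg-ps, had 8 to 18 counts per sample against 142 to 312 for Tdg, and reads that match both could have been split between them.

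Neil1 (ENSMUSG00000032298, chr9:57142800-57148305) encodes a glycosylase for oxidised pyrimidines. Its level was 5.64, 8.34, 7.26 and 6.86 CPM in hypoxia and 4.46, 4.90, 4.11 and 5.95 CPM in normoxia. It was lower in normoxia in 4 of 4 pairs, although normoxia sample 4 was above hypoxia sample 1, so the groups overlapped. The mean went from 7.03 ± 1.12 to 4.86 ± 0.8 CPM, a change of -0.51 (SE 0.157, adjusted p = 0.0242). The call was lost after correction for the GC content and length of transcripts (adjusted p = 0.124, and 0.0452 when the pairs entered the same fit). It was also lost with library size as the only scaling (adjusted p = 0.0525) and when hypoxia 2, hypoxia 3, hypoxia 4, normoxia 1 or normoxia 3 was left out, with adjusted p from 0.0508 to 0.0674.

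Ogg1, the main glycosylase for 8-oxoguanine, was at 9.91 ± 0.952 CPM in hypoxia and 8.68 ± 0.67 CPM in normoxia, with a change of -0.19 (SE 0.113, adjusted p = 0.23). It shares 10.6% of its exon bases with Camk1 on the opposite strand. Mutyh, which removes adenine paired with 8-oxoguanine, was read by 10 to 33 counts per sample and changed by -0.39 (SE 0.244, adjusted p = 0.238). Neither gene passed, and neither p shows that its level was the same at both oxygen levels. Nthl1, whose product removes oxidised pyrimidines, was higher in normoxia in 4 of 4 pairs, with 5.02 ± 0.57 and 6.13 ± 0.511 CPM, and did not pass (log2 0.28, SE 0.132, adjusted p = 0.122), but it passed with the GC and length correction (adjusted p = 0.0289). Neil2, also a glycosylase for oxidised bases, was lower in 4 of 4 pairs at -0.57 (SE 0.305, adjusted p = 0.169). In pair 1, however, its levels were nearly equal (0.669 CPM in hypoxia and 0.668 CPM in normoxia), and both samples of pair 3 had 10 counts. The uracil glycosylase genes Ung and Smug1 were at -0.08 each, with adjusted p of 0.824 and 0.575. Mbd4, whose product acts at methylated CpG sites, was at 0.18, and Neil3, a glycosylase expressed in dividing cells, at -0.05, and neither passed (adjusted p = 0.503 and 0.88).

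Neither AP endonuclease gene passed. Apex1, the main AP endonuclease, was at 6.84 CPM in hypoxia and 7.22 CPM in normoxia (log2 0.08, SE 0.143, adjusted p = 0.725), and Apex2 at 6.26 and 7.20 CPM (log2 0.19, SE 0.15, adjusted p = 0.371). Apex1 shares 61.7% of its exon bases with Pip4p1 on the opposite strand, a gene with 386 to 726 counts per sample. Whether reads were assigned by strand is not given in the sources used here, so the reads of both genes cannot be told apart.

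Of 3 genes for sensing a nick and cleaning its ends, 2 rose. Aptx (ENSMUSG00000028411, chr4:40682382-40703194) encodes aprataxin, which removes the AMP group left on a DNA end by a failed ligation. It was at 18.3, 18.5, 15.5 and 19.4 CPM in hypoxia and at 23.1, 23.5, 23.4 and 21.9 CPM in normoxia, with no overlap, and the mean rose from 17.9 ± 1.71 to 23.0 ± 0.75 CPM (log2 0.36, SE 0.0873, adjusted p = 0.0077). Parp1 (ENSMUSG00000026496, chr1:180568924-180601254), which encodes the poly(ADP-ribose) polymerase that binds strand breaks, was at 45.4, 40.9, 45.7 and 39.7 CPM in hypoxia and 46.6, 47.9, 51.9 and 51.3 CPM in normoxia. The groups were apart by less than 1 CPM, and the rise of 15.2% (log2 0.20, SE 0.0709, adjusted p = 0.0423) was lost with DESeq2, with RLE or upper-quartile scaling and with no filter (adjusted p from 0.0511 to 0.0713). It was lost as well without hypoxia 2, hypoxia 4, normoxia 2, normoxia 3 or normoxia 4, with adjusted p from 0.0754 to 0.13. Its paralogue Parp2 had the same change, 0.20, with a wider error (SE 0.139, adjusted p = 0.298).

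Among 5 genes of gap filling and ligation, 1 rose and 1 fell, and their products are partners. Lig3 (ENSMUSG00000020697, chr11:82781108-82804274) encodes a ligase that closes single-strand nicks and works in mitochondria as well. Its level was 24.1, 19.5, 20.5 and 18.3 CPM in hypoxia and 27.0, 25.1, 26.0 and 27.1 CPM in normoxia. Every normoxia sample was above every hypoxia sample, with means of 20.6 ± 2.52 and 26.3 ± 0.954 CPM (log2 0.36, SE 0.0912, adjusted p = 0.0101). Lig3 shares 25.1% of its exon bases with Rffl on the opposite strand, a gene with 31 to 100 counts per sample and a change of -0.17 (adjusted p = 0.632). Xrcc1 (ENSMUSG00000051768, chr7:24546289-24573440), which encodes the scaffold that binds and stabilises the Lig3 protein, was at 21.1, 18.9, 23.0 and 17.5 CPM in hypoxia and 14.3, 14.4, 15.9 and 17.1 CPM in normoxia. Here every hypoxia sample was above every normoxia sample, and the mean fell from 20.1 ± 2.44 to 15.4 ± 1.33 CPM, a change of -0.37 (SE 0.104, adjusted p = 0.0159). The ratio of Lig3 to Xrcc1 in CPM was 1.14, 1.034, 0.892 and 1.04 in hypoxia samples 1 to 4 and 1.89, 1.74, 1.63 and 1.58 in normoxia, given as a description with no test. The Xrcc1 change shrank to -0.17 with the GC and length correction (adjusted p = 0.218, and 0.125 with the pairs in the fit), and its adjusted p was 0.0542 without hypoxia 3 and 0.0547 without both samples numbered 1.

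The polymerase gene Polb, which fills the single-base gap, was higher in 4 of 4 pairs but did not pass (8.36 and 9.57 CPM, log2 0.21, SE 0.142, adjusted p = 0.29). Lig1, the ligase of replication and long-patch repair, was at 25.8 ± 4.23 and 27.3 ± 4.15 CPM (log2 0.08, SE 0.129, adjusted p = 0.672). Fen1, which trims displaced flaps, was at 0.23 with an SE of 0.388 (adjusted p = 0.695) and shares 78.8% of its exon bases with Gm10143 on the opposite strand, which had 0 to 1 counts per sample.

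**Figure D3:**
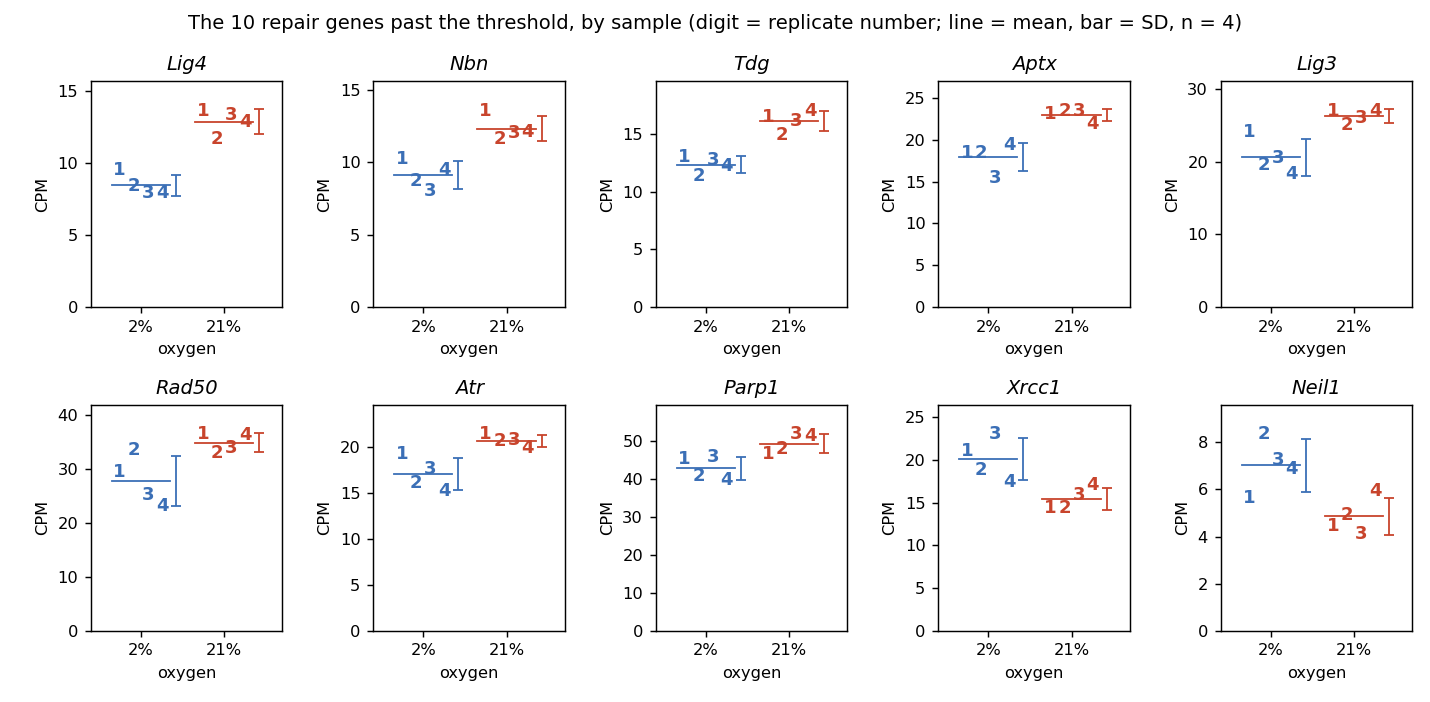
TMM-scaled CPM of the 10 repair genes with an adjusted p under 0.05, in each of the 4 samples at 2% O2 and 4 at 21% O2, where each digit is a sample's replicate number, the line the group mean and the bar the SD. Only Neil1 and Rad50 have groups that overlap, and only Neil1 and Xrcc1 are lower at 21% O2.

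All 13 double-strand break genes had a change above zero, from 0.01 to 0.60, with a median of 0.18, and 4 of them passed. Over all genes the median was 0.0049, and 7260 of 14369 were above zero. The sign of the smallest changes depended on the processing and on single samples. Chek2, Xrcc5, Xrcc6 and Prkdc were below zero with upper-quartile scaling, and Mre11a, Chek2, Xrcc5 and Prkdc with the GC and length correction. Chek2 was below zero with DESeq2. Leaving out any 1 sample put 1 to 3 of the 13 genes below zero, always from among Chek2, Xrcc5, Xrcc6 and Prkdc.

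Of 3 genes of the sensor complex 2 passed. Nbn (ENSMUSG00000028224, chr4:15957925-15992589), the subunit that binds and recruits the Atm kinase, was at 10.2, 8.75, 8.04 and 9.48 CPM in hypoxia and 13.6, 11.6, 12.1 and 12.1 CPM in normoxia. The groups did not overlap, and the mean rose from 9.13 ± 0.947 to 12.3 ± 0.864 CPM (log2 0.43, SE 0.108, adjusted p = 0.00905). Rad50 (ENSMUSG00000020380, chr11:53649519-53707319), the ATPase subunit that tethers DNA ends, was at 29.4, 33.5, 25.1 and 23.1 CPM in hypoxia and 36.5, 32.99, 33.8 and 36.4 CPM in normoxia. It was higher in 3 of 4 pairs, with hypoxia sample 2 above normoxia sample 2, and passed at 0.34 (SE 0.106, adjusted p = 0.0264). That call was lost with the GC and length correction (adjusted p = 0.138, and 0.0396 when the pairs entered the same fit). It was also lost without hypoxia 3, hypoxia 4, normoxia 1 or normoxia 4, with adjusted p from 0.0666 to 0.0812. Mre11a, the nuclease subunit, was at 20.5 ± 3.67 and 22.2 ± 1.56 CPM and did not pass (log2 0.13, SE 0.115, adjusted p = 0.429).

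Of 4 checkpoint kinase genes only Atr passed. Atr (ENSMUSG00000032409, chr9:95857597-95951781) encodes the kinase that responds to single-stranded DNA at stalled forks and resected breaks, and its level was 19.2, 16.1, 17.6 and 15.2 CPM in hypoxia and 21.4, 20.6, 20.7 and 19.9 CPM in normoxia. The groups did not overlap, and the change was 0.28 (SE 0.0895, adjusted p = 0.0294). With the GC and length correction it was 0.08 (adjusted p = 0.557), and the call was also lost with DESeq2 (adjusted p = 0.0587) and without hypoxia 2, hypoxia 4 or any 1 normoxia sample, with adjusted p from 0.0545 to 0.0855. Atm, the kinase that responds to double-strand breaks, was at 17.9 and 20.3 CPM (log2 0.18, SE 0.106, adjusted p = 0.213). The effector kinase genes Chek1 and Chek2 were at 0.30 and 0.01 (adjusted p = 0.306 and 0.96).

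Neither homologous recombination gene passed in the fit without pairs. Brca1, which promotes end resection and the loading of recombination proteins, was at 7.40, 5.46, 5.86 and 4.31 CPM in hypoxia and 8.84, 5.26, 7.65 and 8.37 CPM in normoxia, higher in 3 of 4 pairs (log2 0.37, SE 0.191, adjusted p = 0.151). With the pairs in the fit its adjusted p was 0.0373, and without normoxia 2 it was 0.0448. Brca2, which acts in the strand invasion step of recombination, was at 5.49 and 6.04 CPM (log2 0.18, SE 0.188, adjusted p = 0.508).

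Of 4 end-joining genes 1 passed. Lig4 (ENSMUSG00000049717, chr8:9969049-9977686), which encodes the ligase that seals broken ends, was at 9.53, 8.42, 7.96 and 7.94 CPM in hypoxia and 13.7, 11.7, 13.4 and 12.9 CPM in normoxia. All normoxia samples were above all hypoxia samples, with means of 8.46 ± 0.746 and 12.9 ± 0.876 CPM (log2 0.60, SE 0.105, adjusted p = 0.00119), and the within-pair differences ran from 0.46 to 0.73. The change was 0.39 with the GC and length correction (adjusted p = 0.0107). The 3 genes for the proteins that bind and bridge the ends before ligation did not pass. Xrcc5 was at 25.6 ± 2.01 and 25.7 ± 1.91 CPM (log2 0.01, SE 0.0842, adjusted p = 0.936), Xrcc6 at 19.3 ± 1.29 and 19.9 ± 3.43 CPM (log2 0.03, SE 0.117, adjusted p = 0.88), and Prkdc at 17.1 ± 1.61 and 17.4 ± 2.87 CPM (log2 0.02, SE 0.119, adjusted p = 0.937). The ratio of Lig4 to Prkdc in CPM was 0.574, 0.447, 0.443 and 0.523 in hypoxia and 0.925, 0.643, 0.853 and 0.609 in normoxia, with no overlap and no test. The ratio of Lig4 to Lig1 did not overlap either, while that of Nbn to Mre11a did (0.552 in hypoxia sample 4 and 0.546 in normoxia sample 2). These ratios are made of levels already described and add no separate result.

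To show where these genes start, promoter sequence was taken from RefSeq on build GRCm38.p6 for the glycosylase gene Tdg, the ligase genes Lig3 and Lig4 and the scaffold gene Xrcc1, the genes on which the account above turns (chosen after their values were seen). Each run is the 250 bases before the annotated start, written 5′ to 3′ on the gene's strand, which is + for Tdg at chr10:82629588-82629837, Lig3 at chr11:82780859-82781108 and Xrcc1 at chr7:24546449-24546698, and - for Lig4 at chr8:9976312-9976561. Lig4 has a further annotated start, whose 250 bases at chr8:9977681-9977930 lie at the 5′ end of the gene and are not printed. The printed Lig4 run lies inside the span of that gene in GENCODE. So does the Xrcc1 run inside the span of Xrcc1, which begins upstream of it at chr7:24546289. Both runs precede an internal RefSeq start and can hold transcribed sequence. Capitals mark the letters ACGTG or GCGTG on either strand (CACGT and CACGC on the printed one), the core letters bound by hypoxia-inducible factors.
Tdg: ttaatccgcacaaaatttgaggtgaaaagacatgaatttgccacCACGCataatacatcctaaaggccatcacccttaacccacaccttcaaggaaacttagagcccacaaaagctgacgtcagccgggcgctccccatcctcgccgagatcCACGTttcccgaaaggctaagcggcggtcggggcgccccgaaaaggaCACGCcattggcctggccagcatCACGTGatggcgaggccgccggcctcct
Lig3: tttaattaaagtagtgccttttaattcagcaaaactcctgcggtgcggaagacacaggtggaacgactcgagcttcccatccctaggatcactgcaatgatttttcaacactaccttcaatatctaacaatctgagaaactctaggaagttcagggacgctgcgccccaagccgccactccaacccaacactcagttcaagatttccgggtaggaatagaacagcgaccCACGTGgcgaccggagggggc
Xrcc1: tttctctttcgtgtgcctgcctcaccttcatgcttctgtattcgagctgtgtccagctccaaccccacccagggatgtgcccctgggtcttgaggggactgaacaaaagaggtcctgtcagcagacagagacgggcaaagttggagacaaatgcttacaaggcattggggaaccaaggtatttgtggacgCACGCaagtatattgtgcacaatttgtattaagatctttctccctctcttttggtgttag
Lig4: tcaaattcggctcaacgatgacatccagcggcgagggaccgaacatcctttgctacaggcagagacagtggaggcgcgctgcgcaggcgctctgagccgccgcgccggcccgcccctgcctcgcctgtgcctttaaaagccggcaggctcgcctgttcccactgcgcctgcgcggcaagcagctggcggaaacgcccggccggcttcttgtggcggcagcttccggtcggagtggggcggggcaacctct
Tdg and Lig3 each hold CACGTG, which counts on both strands, Xrcc1 holds CACGC, and neither Lig4 run holds such letters. Over the full 300-base windows (250 before and 50 after the start), 27 of the 33 genes had an entry, with 33 windows in all (some genes have more than 1). Of these 33 windows 24, from 21 genes, held ACGTG or GCGTG, as did 43.8% of all 32851 windows of the same length. An E2F-like sequence (TTTCCCGC, TTTGGCGC, TTTCGCGC or TTTGCCGC on either strand) was in 2.26% of all windows and in 5 of the 33 windows, those of Nthl1, Lig1, Chek2, Brca2 and Xrcc6, none of which passed the expression test. A match is only a description of letters in a window.

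Set side by side, base excision and single-strand repair had 6 of 20 genes past the threshold, 4 higher and 2 lower (4 and 1 with library size as the only scaling), with a median change of 0.13, and double-strand break repair 4 of 13, all higher, with a median of 0.18. Both shares were close to that of all genes. With the pairs in the fit the counts were 6 and 5, against 46.0% of all genes. The median deviation of the 13 double-strand break genes from their mean was 0.04, -0.15, -0.08 and -0.30 in hypoxia samples 1 to 4 and 0.21, 0.08, 0.12 and 0.19 in normoxia, on the log2 scale. For the 20 base excision and single-strand genes it was 0.04, -0.13, -0.07 and 0.01 in hypoxia and 0.16, -0.03, 0.02 and 0.08 in normoxia, where the groups overlapped. These are descriptions with no test, and no test of the difference between both classes was made.

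The transcripts of the classes also differed in composition. The longest transcript of a double-strand break gene had a median GC content of 44.4% and a length of 5153 bases, against 50.3% and 3152 bases for base excision and single-strand genes and 49.7% and 3258 bases for all genes tested. Across 14353 genes the log2 change was related to GC content with a Spearman rho of -0.39, a value across genes, which are not independent replicates. After correction for both properties 30.0% of all genes passed, and the counts became 5 of 20 (5 higher and 0 lower) and 2 of 13 (2 higher), with medians of 0.07 and 0.08. Lig4, Tdg, Aptx, Lig3, Nbn and Parp1 still passed, and Xrcc1, Neil1, Rad50 and Atr did not. Nthl1 was added.

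**Figure D4:**
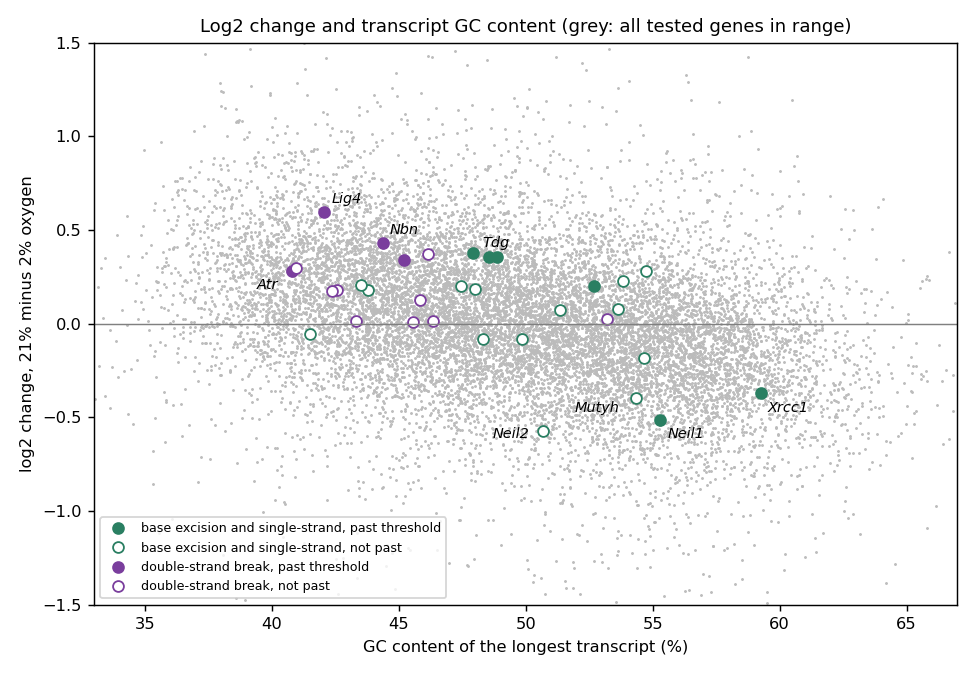
Log2 change (normoxia minus hypoxia) of the 33 repair genes against the GC content of their longest transcript in percent, coloured by class and filled where the adjusted p was under 0.05. Grey points are the tested genes with a GC value that lie within the range of the axes. The double-strand break genes lie mostly at lower GC content, around a median of 44.4%, and Xrcc1 and Neil1, the genes that fell, lie at 59.3% and 55.3%.

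The rest of each pathway was read from a list of 57 further repair genes, of which 56 were tested (Atrip, with 0 to 3 counts, was not). Of these 19 passed, 14 higher and 5 lower in normoxia, which is 33.9% against 34.6% of all genes. The 4 widest rises and 4 widest falls are given with values, and the other genes were named after their values were seen. Rif1, which limits the trimming of broken ends, went from 9.66 ± 2.02 to 17.5 ± 1.99 CPM (log2 0.86, SE 0.147, adjusted p = 0.00102). Rnf168, the ubiquitin ligase that marks chromatin around a break, went from 16.5 ± 1.71 to 28.2 ± 2.04 CPM (log2 0.78, SE 0.0937, adjusted p = 0.000152). In all 8 of 14 break-signalling genes passed, 7 higher (Rif1, Rnf168, Topbp1, Rad17, Hus1, Trp53bp1 and Mdc1) and Rad9a lower. With the GC and length correction 5 of the 14 passed, all higher, against 30.0% of all genes. Rad17, Hus1 and Rad9a then did not pass (adjusted p = 0.0601, 0.375 and 0.0913). Rad9a and Hus1 encode subunits of the same sliding clamp, and Rad9a fell from 12.9 ± 2.16 to 9.42 ± 0.583 CPM (log2 -0.43, SE 0.126, adjusted p = 0.0195).

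Of the 7 other end-joining genes tested, 3 rose and 1 fell. The polymerase gene Polm went from 10.99 ± 1.83 to 16.2 ± 1.047 CPM (log2 0.56, SE 0.119, adjusted p = 0.0035). Tdp2, which clears topoisomerase from DNA ends, passed as well, but not with the GC and length correction (adjusted p = 0.249). Xrcc4, the obligate partner of Lig4 (named for that reason after its value was seen), went from 5.995 to 7.91 CPM (log2 0.39, SE 0.118, adjusted p = 0.0222), and 0.235 was its adjusted p with the GC and length correction. Paxx, which helps Ku hold the ends, fell from 12.1 ± 1.74 to 8.55 ± 1.55 CPM (log2 -0.50, SE 0.143, adjusted p = 0.0182). Of 19 further homologous recombination genes 1 passed, the resection factor gene Rbbp8, which rose from 10.6 ± 2.48 to 16.0 ± 1.39 CPM (log2 0.61, SE 0.15, adjusted p = 0.00782). Of 16 further base excision and single-strand genes 6 passed, 3 higher and 3 lower, with Poll at -0.40 (SE 0.12, adjusted p = 0.0224) and the polymerase delta subunit gene Pold2 at -0.34 (SE 0.0891, adjusted p = 0.0111) among the latter. Rif1, Rnf168, Polm and Rbbp8 passed with the GC and length correction as well, and Paxx, Rad9a, Poll and Pold2 did not. With the correction 11 of 56 passed in all, against 30.0% of all genes. With the pairs in the fit 28 of 56 passed, against 46.0% of all genes.

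Many repair genes are made most in dividing cells, so cell cycle genes were read beside them. Of 34 such genes 3 passed, which is 8.82% against 34.6% of all genes, and the median change was -0.0015. They were Rrm2, Ccne1 and Ccne2, all higher in normoxia and named after their values were seen. With the pairs in the fit 8 of the 34 passed, against 46.0% of all genes. The proliferation marker Mki67 was at 61.3 ± 21.3 CPM in hypoxia and 58.3 ± 11.4 CPM in normoxia (log2 -0.04, adjusted p = 0.908). Top2a, which encodes the topoisomerase of dividing cells, was at 71.9 ± 27.7 and 99.5 ± 20.2 CPM and did not pass (log2 0.51, SE 0.204, adjusted p = 0.0698), but with the pairs in the fit its adjusted p was 3.51e-06. Summed mitosis genes ranged from 289 to 604 CPM in hypoxia and from 333 to 539 CPM in normoxia, and summed replication genes from 485 to 728 and from 561 to 803 CPM. Both ranges overlapped between the groups. The part of cell division in the changes of the repair genes was not tested.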

How the data were processed

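Gene counts were deposited for 8 RNA-seq libraries, 4 per oxygen level. Per the study's methods the authors made them from NEBNext Ultra II single-end libraries with zUMIs, STAR and featureCounts on mm10 (GRCm38) with Ensembl annotation. Settings for strand, introns and multiply mapped reads are not given in the sources used here. The deposited values are raw counts, with no normalization. Here genes were filtered with edgeR 4.0.16 (filterByExpr, minimum count 5), TMM scaled, turned into log2 CPM (prior count 3) and tested with limma-trend (limma 3.58.1, R 4.3.3) on the 8 samples without a pairing term, with Benjamini-Hochberg adjustment over 14369 genes and a threshold of 0.05. CPM values printed carry no prior count. Exon length, transcript length, GC content and coordinates came from GENCODE M21 (GRCm38), and promoters from RefSeq (GRCm38.p6). The GC and length correction took a spline with 5 df of each out of every sample's log2 CPM.

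The numbers were taken as pairs because the sorted cells were divided between the oxygen levels and same-numbered samples deviated together (correlations of 0.47, 0.28, 0.25 and 0.17 over genes). Alternatives were edgeR's quasi-likelihood test, DESeq2 1.42.0, limma-voom, other scalings, filters and prior counts, a replicate block, the correction with and without it, a threshold of 0.01 and leaving out each sample. Leaving out both samples numbered 1 was added after the data were seen. All programs were tested on simulated data in which 196 of 14194 genes changed. False calls were 7.1% of the calls with the replicate block, 6.1% with DESeq2 and 2.53% to 3.21% with the other fits. The simulated data held no pair effect and no trend with GC content. They therefore cannot show how well the block or the correction deals with either. The repair genes, the further repair, cell cycle and marker lists and the tests were chosen with earlier results of these data known. The genes of the list were all reported. Of the other repair genes, those past the threshold with the widest changes were named in each direction, 4 each. Top2a and Mki67 of the cell cycle list and Ptprc of the blood cell list were named whatever their values.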

Additional observations from a re-analysis of the deposited data

Results flagged for a closer look

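In 3 of 68 sets of 4 samples examined (the log2 CPM of each repair gene in each group, and the total counts), 1 sample stood apart from the others by more than Dixon's 95% critical value for the gap over the range. Chance alone would give about 3.4. The total count of hypoxia sample 1 was 25132141, while hypoxia samples 2 to 4 lay between 12929564 and 13219647 (gap over range 0.976). Ung was at a log2 CPM of 0.92 in hypoxia sample 2 and at 1.59 to 1.72 in the other hypoxia samples (0.844). Mre11a was at a log2 CPM of 4.63 in normoxia sample 1 and at 4.42 to 4.45 in the other normoxia samples (0.851). Neither gene passed the test between oxygen levels, and the cause of these gaps was not tested.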

How the results depend on the processing

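Tdg, Aptx, Lig3, Nbn and Lig4 passed at 0.05 under all 20 alternatives of fit, scaling, filter and left-out sample set out in the methods, and 21 of the 33 genes passed neither in them nor in the fit reported. No repair gene that passed changed sign. With the replicate block, which uses the pairing, 6 base excision and single-strand genes, 5 double-strand break genes (Brca1 added), 28 further repair genes, 8 cell cycle genes and 6610 of all genes passed, and the medians of both classes were 0.13 and 0.18. With the GC and length correction 2 double-strand break genes, 11 further repair genes and 4306 of all genes passed, and the double-strand median was 0.076. That median was the same with the block added, where 11 cell cycle genes and 6214 of all genes passed. With library size as the only scaling the base excision and single-strand median was 0.22 and 5 cell cycle genes passed. At an adjusted p of 0.01 there were 2 calls in each class and 2925 over all genes. Leaving out 1 sample gave 4 to 6 base excision and single-strand calls, 2 to 4 double-strand calls (2 without hypoxia 4, normoxia 1 or normoxia 4), 13 to 22 further repair genes, 1 to 6 cell cycle genes (6 without hypoxia 1, and 1 without hypoxia 4, normoxia 1 or normoxia 3) and 3838 to 5423 genes in all. The base excision and single-strand median then ran from 0.048 (without normoxia 1) to 0.17, and the double-strand median from 0.12 to 0.34 (without hypoxia 1). Without both samples numbered 1 the double-strand median was 0.30 and 5 cell cycle genes passed. The cause of these shifts was not tested. Depth limits Fen1, Neil2 and Mutyh, which had under 20 counts in some samples.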
